A study of Mus musculus with 8 samples.

Results

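The 35 genes described here encode the transcription factor NRF2, its sensor KEAP1 and the enzymes that make or use glutathione, thioredoxin and NADPH or that remove superoxide and peroxides. They were taken by name from the protein-coding rows of a table of normalised counts (reads per gene divided by a size factor for each library), and all 35 were found among 22033 protein-coding rows and 54508 rows in all. Total RNA had been sequenced from the hearts of 24-week-old mice, 4 labelled RNase H1+/+ (wild type) and 4 labelled RNase H1-/- (knockout). RNase H1 degrades RNA in RNA-DNA hybrids and is needed for the replication of mitochondrial DNA. In the knockouts exon II of *Rnaseh1* was flanked by loxP sites and removed by Cre from the muscle creatine kinase promoter, which is active in cardiac and skeletal muscle; other cells of the heart are not targeted. The targeted embryonic stem cells came from C57BL/6N, and the mice are labelled C57BL/6. The study describes its controls as floxed mice without Cre, so effects of Cre cannot be told apart from those of the deletion.

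Under resting conditions KEAP1 binds NRF2, the product of *Nfe2l2*, and brings it to a ubiquitin ligase for degradation. Oxidants and electrophiles modify cysteines of KEAP1, and NRF2 then accumulates, pairs with a small MAF protein and binds antioxidant response elements in front of its target genes. Glutathione is made from glutamate, cysteine and glycine by glutamate-cysteine ligase and glutathione synthetase. Glutathione peroxidases and peroxiredoxins reduce peroxides, and glutathione reductase and the thioredoxin reductases restore the reduced partners with electrons from NADPH. Parallel sets of these enzymes work in the cytosol and in the mitochondrial matrix, where superoxide leaks from the respiratory chain of the heart.

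The wild type libraries held 31810103 to 40715847 reads and the knockout libraries 27429878 to 30505752. Reads from mitochondrial DNA made up 60.2 to 62.6% in wild type and 9.46 to 12.3% in knockout hearts, so reads from nuclear genes were 11896021 to 16213429 against 24835342 to 27146119. *Rnaseh1* itself had 129 to 158 normalised counts in wild type and 145 to 182 in knockout libraries (adjusted p = 0.114). This is a count over the whole gene, and it does not check the deletion of a single exon. The study reports by RT-PCR that the transcripts of knockout hearts lacked the exon. By qPCR it reports lower *Rnaseh1* transcript levels, a fall that the whole-gene count did not show (log2 change 0.23). Replicates are separate samples by their labels, and p-values measure the spread between these 4 and 4 samples. All 10 cardiomyocyte markers were lower in knockout hearts, and their summed normalised counts were 511620 to 622536 against 1607868 to 1674477 in wild type. All 8 macrophage markers and all 5 granulocyte markers were higher, as were 6 of 8 fibroblast markers, with none lower. The granulocyte markers *S100a8*, *S100a9*, *Retnlg* and *Cxcr2* had wild type means of 7.54, 9.51, 1.18 and 1.98 normalised counts. They passed the filter, a mean of at least 10 over all libraries, only through the knockout group. They could hardly have been called lower. Of the endothelial markers 1 was higher and 2 lower of 7, of the mural markers 2 were higher and 2 lower of 6, and none of the 6 erythroid, the 4 tested adipocyte and the 1 tested lymphocyte markers was called. Of all genes tested, 30.7% were higher and 28.4% lower. In such bulk samples, fewer cells of a type and less RNA per cell cannot be told apart. Knockout replicates 3 and 4 held more erythroid and granulocyte RNA than replicates 1 and 2. The erythroid markers summed to 6320, 6784, 21982 and 19478 in knockout replicates 1 to 4, against 10770 to 12795 in wild type. Granulocyte markers summed to 296, 335, 1261 and 1561 in the same libraries, against 48.1 to 64.6. The few lymphocyte counts ran otherwise, with sums of 62.0, 59.9, 9.78 and 39.1 in knockout replicates 1 to 4 and 32.8 to 60.4 in wild type. Knockout replicates 3 and 4 also differed from 1 and 2 in markers of other cells. In knockout replicates 1 to 4 the endothelial *Kdr* was at 6965, 6480, 2962 and 3116 and *Vwf* at 3243, 3804, 7528 and 6971. The cardiomyocyte marker *Actc1* was at 117927, 115268, 51348 and 64647. The log2 changes and calls of the 35 genes were therefore also computed without knockout replicates 3 and 4, a choice made after seeing the data. Ratios of 2 genes within a library and counts of genes without overlap were not computed in this way.

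Antioxidant response elements share the core TGACNNNGC, which was searched on both strands of the 300 bases around each start site that RefSeq gives a gene (250 before to 50 after, GRCm38.p6). Windows were at hand for 29 of the 35 genes, and *Hmox1*, *Prdx6*, *Gclc*, *Gsr*, *Sod3* and *Gsta4* had none. The core was present for 10 of the 29 genes (34.5%), against 14% of 27025 genes with a window. It was found in 8 of the 19 genes with a window that were higher in knockout hearts and in 2 of the other 10, *Sod1* and *Mgst1*. The stretches that hold it are shown because they are the candidate elements of genes described in the following paragraphs. Each is written 5′ to 3′ on the strand of its gene, with the match in capitals. Positions count from the RefSeq start of the window. *Txnrd1* has 3 windows, and the one shown belongs to a start 25255 bases inside the gene as deposited; the start used for *Pgd* lies 689 bases, that for *G6pdx* 314 bases and that for *Mgst1* 211 bases inside. A match that begins with GC lies on the opposite strand and is the core read backwards and complemented.
*Nfe2l2*, chr2:75704885-75704913, minus strand, match at positions -240 to -232 from the start: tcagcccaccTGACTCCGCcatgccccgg
*Srxn1*, chr2:152105542-152105570, plus strand, match at 28 to 36: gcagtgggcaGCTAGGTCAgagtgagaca
*Gclm*, chr3:122245413-122245441, plus strand, match at -134 to -126: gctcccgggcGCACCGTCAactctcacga
*Txnrd1*, chr10:82859104-82859132, plus strand, match at -92 to -84: ctggatttttGCTTTGTCAttctgacacg
*G6pdx*, chrX:74428919-74428947, minus strand, match at -57 to -49: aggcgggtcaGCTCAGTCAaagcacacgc
*Pgd*, chr4:149166061-149166089, minus strand, match at 3 to 11: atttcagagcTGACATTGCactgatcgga
*Me1*, chr9:86695902-86695930, minus strand, match at -6 to 2: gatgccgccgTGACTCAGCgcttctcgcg
*Prdx1*, chr4:116685456-116685484, plus strand, match at -133 to -125: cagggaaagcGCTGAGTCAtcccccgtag
*Mgst1*, chr6:138140461-138140489, plus strand, match at -56 to -48: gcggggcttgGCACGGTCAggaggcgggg
*Sod1*, chr16:90220696-90220724, plus strand, match at -56 to -48: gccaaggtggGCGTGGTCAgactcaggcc
The matches of *Me1* and *Prdx1* contain the AP-1 motif TGACTCA, which shares its first letters with the core. TGACTCA was present for 4 of the 29 genes (*Gstp1*, *Me1*, *Prdx1* and *Srxn1*, 13.8%), against 5.95% of all genes with a window. The composite motif TGATGCAA, bound by ATF4 with a C/EBP partner, was found for 0 of the 29 genes, against 1.03% of all genes. At so low a share, 0 of 29 cannot tell these genes apart from all genes. A match is a run of letters in this window and not a bound site, and elements of NRF2 targets can lie farther away.

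Of the 35 genes, 24 were higher and 7 lower in knockout hearts, and 4 were not called (limma on log2 of normalised count + 1, adjusted p under 0.05). Over all 17046 genes tested, 30.7% were higher and 28.4% lower. The median log2 change was 0.60 over the 35 genes and 0.02 over all genes tested. At least 2-fold higher were 11 of the 35, against 11.5% of all genes. Lower by that much was 1 gene, *Sod2*, against 1838 of all 17046 genes tested. Every knockout library lay above every wild type library for 21 of the 35 (28.2% of all genes) and below for 6 (26.5% of all genes). All of the glutathione synthesis and NADPH supply genes were higher, and the 7 lower genes were *Keap1*, *Txn2*, *Prdx2*, *Prdx3*, *Prdx5*, *Sod2* and *Gstp1*. These directions hold relative to the median gene. Scaled to equal totals of all reads, mitochondrial RNA included, the median gene itself was at a log2 change of 1.44, and none of the 7 genes was then lower before this shift was taken off.

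**Figure D1:**
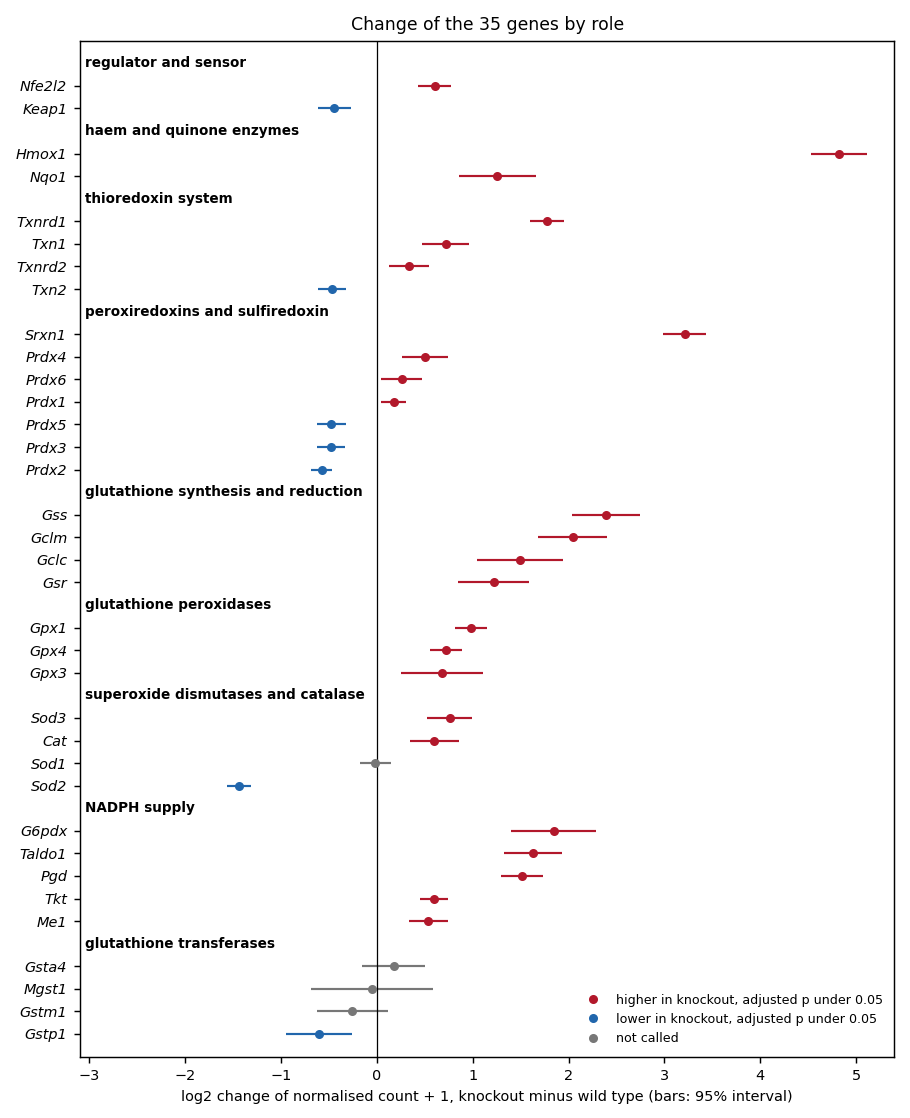
The log2 change of each of the 35 genes (knockout minus wild type, log2 of normalised count + 1) with its 95% interval from limma, grouped by role; red marks genes called higher, blue genes called lower and grey genes not called. *Hmox1* at 4.82 and *Srxn1* at 3.21 lie farthest to the right and *Sod2* at -1.44 farthest to the left.

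*Nfe2l2* (ENSMUSG00000015839, chr2:75675513-75704641) and its sensor *Keap1* (ENSMUSG00000003308, chr9:21229730-21239361) changed in opposite directions. Normalised counts of *Nfe2l2* were 1135, 1347, 1318 and 1307 in wild type replicates 1 to 4 and 1870, 1798, 2156 and 1937 in knockout replicates 1 to 4. All knockout libraries lay above all wild type libraries, with means of 1277 ± 95.9 and 1941 ± 155 (SD, n = 4 each) and a log2 change of 0.60 ± 0.08 (SE, adjusted p = 6.59e-05). *Keap1* had 1136, 1173, 1290 and 1186 normalised counts in wild type and 854, 796, 981 and 888 in knockout libraries. All knockout libraries lay below all wild type libraries, with a log2 change of -0.45 ± 0.08 (adjusted p = 0.000526). Within a library the size factor cancels from a ratio of 2 genes. The log2 ratio of *Nfe2l2* to *Keap1* was 0.00, 0.20, 0.03 and 0.14 in wild type libraries and 1.13, 1.18, 1.13 and 1.12 in knockout libraries. The mean ratio was 1.05 higher on the log2 scale in knockout hearts, with an SD of 0.09 among wild type and 0.02 among knockout libraries (exact permutation test, p = 0.0286, the smallest the 70 assignments of 4 and 4 libraries allow, and 0.0333 after adjustment over the 7 pairs of genes compared).

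Among 14 partners and regulators of NRF2, 6 were higher (42.9%, against 30.7% of all genes tested) and 3 lower (21.4%, against 28.4%). The largest rise was that of *Sqstm1*, which encodes p62, an autophagy receptor that binds KEAP1. It had 5864, 6547, 7175 and 7020 normalised counts in wild type libraries and 38516, 33528, 35233 and 41421 in knockout libraries, a log2 change of 2.48 ± 0.08. The small MAF proteins, with which NRF2 forms dimers, were all higher: *Maff* by 2.07 ± 0.17, *Mafk* by 1.63 ± 0.10 and *Mafg* by 0.81 ± 0.06 on the log2 scale. *Dpp3*, another protein that binds KEAP1, rose by 1.08 ± 0.07. The largest falls were those of *Bach2*, a repressor that also binds MAF proteins (-0.49 ± 0.15), and of *Btrc*, an adaptor of a second ubiquitin ligase of NRF2 (-0.43 ± 0.07). *Cul3*, the scaffold of the ligase that KEAP1 serves, also fell, with a log2 change of -0.41.

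*Hmox1* and *Nqo1*, the haem oxygenase that opens the haem ring and a quinone reductase, were both higher in knockout hearts. *Hmox1* (ENSMUSG00000005413, chr8:75093621-75100589) had 78.2, 65.3, 88.1 and 104 normalised counts in wild type and 2429, 2075, 2564 and 2402 in knockout libraries. Its mean went from 83.8 ± 16.2 to 2367 ± 207, which is 28.3-fold, with a log2 change of 4.82 ± 0.13 (adjusted p = 1.46e-09). This was the largest change among the 35 genes, and the coefficient of variation among the 4 knockout libraries was 8.76%. Macrophages of the spleen and liver are rich in HMOX1 because they degrade haem, and the macrophage markers summed to 16759, 17807, 14005 and 17677 in knockout replicates 1 to 4 against 5306 to 5962 in wild type; their part in the result was not tested. *Nqo1* (ENSMUSG00000003849) had 917, 1024, 1239 and 1138 normalised counts in wild type and 2053, 2051, 3741 and 2742 in knockout libraries. All knockout libraries were above the wild type range, replicates 1 and 2 lay close together and replicate 3 lay highest, with a log2 change of 1.26 ± 0.18 (adjusted p = 0.000147) and of 0.94 without knockout replicates 3 and 4.

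**Figure D2:**
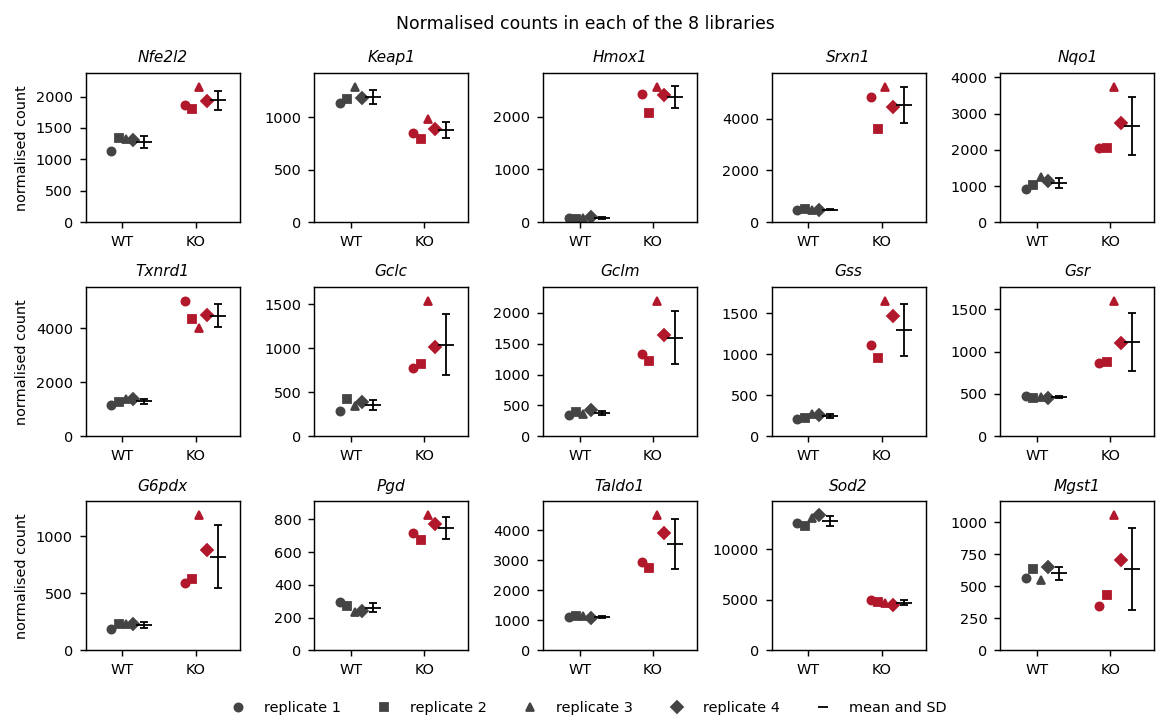
Normalised counts of 15 genes in each library, wild type in grey and knockout in red, with a symbol for each replicate number and the mean and SD of 4 libraries at the right of each group; every y axis starts at 0. The groups are separate for all genes shown except *Mgst1*. The triangle of knockout replicate 3 is the highest value for all genes shown except *Keap1*, *Txnrd1* and *Sod2*.

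Of 14 tested genes among the 15 further NRF2 targets, 11 were higher in knockout hearts (78.6%, against 30.7% of all genes tested). Only 1 was lower (7.14%, against 28.4%). *Slc7a11*, which imports cystine for glutathione synthesis, had 3.01, 4.93, 3.09 and 8.63 normalised counts in wild type and 2471, 1967, 1805 and 1883 in knockout libraries. It had 13 reads over the 4 wild type libraries against 12230 in the knockouts, and so passed the filter on low values only through the knockout group. Its fitted log2 change depends on the pseudocount, at 8.66, 8.51 and 7.71 with 0.5, 1 and 5 added. *Ftl1*, the light chain of the iron store ferritin, had a mean of 2866 ± 230 in wild type and 13834 ± 1481 in knockout libraries (log2 change 2.27 ± 0.09). The heavy chain *Fth1* had a log2 change of 0.09 and was not called. The single fall was that of the carbonyl reductase *Cbr1*, from 386 ± 3.53 to 264 ± 17.9 normalised counts (log2 change -0.55 ± 0.08).

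In the thioredoxin system the cytosolic pair rose and the mitochondrial pair split. *Txn1*, cytosolic thioredoxin, had 607, 603, 561 and 553 normalised counts in wild type and 800, 876, 1156 and 1021 in knockout libraries (log2 change 0.72 ± 0.11, adjusted p = 0.000224). *Txn2*, the mitochondrial form, had 1517, 1576, 1494 and 1675 in wild type and 1134, 1089, 1082 and 1229 in knockout libraries (-0.47 ± 0.07, adjusted p = 0.000124). Neither gene had overlapping groups. The log2 ratio of *Txn1* to *Txn2* within a library was -1.43 ± 0.12 in wild type and -0.25 ± 0.25 in knockout hearts, so the 0.37-fold ratio of counts became 0.84-fold (difference 1.18, exact permutation p = 0.0286, adjusted 0.0333). Knockout replicate 3 was the only library in which *Txn1* had more counts than *Txn2*, at a log2 ratio of 0.10. Counts grow with gene length, and per kb of exon *Txn1* was above *Txn2* in both groups. The means per kb were 553 against 372 in wild type and 917 against 269 in knockout hearts. Exon length here joins all annotated exons of a gene, 1051 bases for *Txn1* and 4208 for *Txn2*. It can exceed the length of the transcripts present, so levels per kb of different genes are approximate.

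*Txnrd1*, the cytosolic thioredoxin reductase and a selenoprotein, had 1177, 1273, 1378 and 1374 normalised counts in wild type and 5020, 4361, 4007 and 4487 in knockout libraries. The groups were far apart, with a log2 change of 1.78 ± 0.08 (adjusted p = 3.2e-08), and here replicate 3 was the lowest knockout library. *Txnrd2*, the mitochondrial reductase, had 361, 339, 391 and 325 in wild type and 463, 419, 405 and 497 in knockout libraries (0.33 ± 0.09, adjusted p = 0.011). Both reductases were higher without overlap, and their log2 ratio went from 1.88 ± 0.16 to 3.32 ± 0.11 (difference 1.45, exact permutation p = 0.0286, adjusted 0.0333). In counts the cytosolic gene was 3.67-fold over the mitochondrial one in wild type and 9.99-fold in knockout hearts.

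The 6 peroxiredoxins, which reduce peroxides through a reactive cysteine, moved little and in both directions. *Prdx2* and *Prdx3* fell, from 4581 ± 119 to 3072 ± 88.6 and from 4365 ± 225 to 3136 ± 238. The cytosolic *Prdx2* had 4471, 4517, 4595 and 4743 normalised counts in wild type and 2981, 3193, 3062 and 3051 in knockout libraries (log2 change -0.58 ± 0.05, adjusted p = 2.98e-06). The mitochondrial *Prdx3* had 4253, 4191, 4323 and 4693 in wild type and 2888, 3106, 3462 and 3089 in knockout libraries (-0.48 ± 0.07, adjusted p = 0.000119). *Prdx5*, found in mitochondria, peroxisomes and cytosol, fell by 0.48 ± 0.07 on the log2 scale. *Prdx4*, the form of the endoplasmic reticulum, rose by 0.50 ± 0.11, with 221 to 255 normalised counts in wild type and 295 to 394 in knockout libraries. *Prdx1* had 4089, 4239, 4099 and 4663 normalised counts in wild type and 4600, 4761, 5084 and 4836 in knockout libraries. Its groups overlapped at wild type replicate 4, and the log2 change was 0.18 ± 0.06 (adjusted p = 0.027). *Prdx6* overlapped as well, with 3197 to 3629 in wild type and 3584 to 4919 in knockout libraries (0.26 ± 0.10, adjusted p = 0.0382). Neither *Prdx1* nor *Prdx6* was called without wild type replicate 1, 2 or 3, without knockout replicate 4 or without knockout replicates 3 and 4, where their log2 changes were 0.13 to 0.17 and 0.10 to 0.26.

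The log2 ratio of the cytosolic *Prdx1* to the mitochondrial *Prdx3* was -0.03 ± 0.04 in wild type and 0.62 ± 0.05 in knockout hearts (difference 0.65, exact permutation p = 0.0286, adjusted 0.0333). For *Prdx2* to *Prdx3* the ratios were 0.07 ± 0.04 and -0.03 ± 0.10, and the difference of -0.10 did not pass the test (exact permutation p = 0.0857, adjusted 0.0857).

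*Srxn1*, sulfiredoxin, repairs peroxiredoxins whose cysteine has been over-oxidised. It had 480, 497, 485 and 477 normalised counts in wild type and 4829, 3613, 5232 and 4463 in knockout libraries. The coefficient of variation among wild type libraries was 1.82%, and the knockout mean was 9.36-fold higher (log2 change 3.21 ± 0.10, adjusted p = 3.33e-09). *Srxn1* (ENSMUSG00000032802, chr2:152105516-152111376) carries its core match just behind the start, within the transcribed part of the window printed above.

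The 4 genes of glutathione synthesis and reduction were all at least 2-fold higher in knockout hearts. *Gclc*, the catalytic subunit of glutamate-cysteine ligase, had 283, 418, 348 and 385 normalised counts in wild type and 774, 826, 1537 and 1018 in knockout libraries (log2 change 1.49 ± 0.20, adjusted p = 0.000101). *Gclm*, its modifier subunit, had 340, 394, 360 and 418 in wild type and 1338, 1220, 2192 and 1634 in knockout libraries (2.04 ± 0.16, adjusted p = 1.77e-06). *Gclm* shares 244 exonic bases (3.88% of its length) with *Gm6061* on the same strand. In both subunits the groups were separate, and knockout replicate 3 lay above the other 3. The log2 ratio of *Gclc* to *Gclm* fell from -0.09 ± 0.14 to -0.64 ± 0.12, a difference of -0.55 (exact permutation p = 0.0286, adjusted 0.0333). The modifier subunit therefore gained more than the catalytic one in counts.

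*Gss*, glutathione synthetase, had 217, 226, 267 and 257 normalised counts in wild type and 1118, 957, 1653 and 1471 in knockout libraries. Its 5.38-fold rise (log2 change 2.39 ± 0.16, adjusted p = 5.22e-07) was the largest of the 4 genes. *Gsr*, glutathione reductase, which serves cytosol and mitochondria, had 480, 451, 460 and 458 in wild type and 870, 876, 1600 and 1103 in knockout libraries (1.22 ± 0.17, adjusted p = 0.000112). The coefficient of variation of *Gsr* was 2.66% among wild type and 30.8% among knockout libraries. For all 4 genes knockout replicates 3 and 4 were the highest libraries. Without them the log2 changes were 1.17 for *Gclc*, 1.76 for *Gclm*, 2.10 for *Gss* and 0.92 for *Gsr*, and all 4 stayed called.

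Among 16 tested genes of glutathione turnover and transport, 5 were higher and 5 lower, 31.2% each, which is near the shares of all genes tested (30.7% higher and 28.4% lower). *Chac1*, which cleaves glutathione in the cytosol, had 30.1, 38.2, 38.6 and 38.0 normalised counts in wild type and 1018, 868, 785 and 1010 in knockout libraries (log2 change 4.63 ± 0.13). Its paralog *Chac2* fell from 238 ± 8.02 to 138 ± 16.7 (-0.79 ± 0.11), and *Ggct* fell from 351 ± 41.7 to 142 ± 15.7 (-1.30 ± 0.12). *Slc25a39*, the carrier that brings glutathione into mitochondria, rose from 1819 ± 134 to 5013 ± 369 (1.46 ± 0.07), in all 4 knockout libraries without overlap.

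All 3 glutathione peroxidases were higher. *Gpx1*, of cytosol and mitochondria, had 728 to 782 normalised counts in wild type and 1365 to 1697 in knockout libraries (log2 change 0.98 ± 0.07, adjusted p = 1.39e-06). *Gpx4*, which reduces lipid peroxides in membranes, had 3733 to 4400 and 6333 to 7593 (0.72 ± 0.08, adjusted p = 1.38e-05). Neither gene overlapped between groups. The secreted *Gpx3* did overlap, with 2348, 3567, 2342 and 2493 in wild type and 2918, 4026, 5463 and 4988 in knockout libraries (0.68 ± 0.19, adjusted p = 0.0119). Wild type replicate 2 was above knockout replicate 1, and without knockout replicates 3 and 4 the log2 change was 0.37 (adjusted p = 0.0444).

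Of the superoxide dismutases, which turn superoxide into peroxide, *Sod2* fell, *Sod3* rose and *Sod1* was not called. *Sod2*, the mitochondrial manganese enzyme (ENSMUSG00000006818, chr17:13006846-13040063), had 12595, 12291, 13098 and 13427 normalised counts in wild type and 4981, 4823, 4683 and 4450 in knockout libraries. It fell by 1.44 ± 0.06 on the log2 scale (adjusted p = 1.27e-08), to 0.37 of the wild type level, and the knockout libraries differed little, with a coefficient of variation of 4.75%. The cytosolic *Sod1* had 2795, 2913, 2648 and 2756 in wild type and 2593, 2598, 3167 and 2667 in knockout libraries. The groups overlapped, and its log2 change was -0.02 with a 95% interval from -0.18 to 0.15 (adjusted p = 0.871). Within libraries the log2 ratio of *Sod1* to *Sod2* went from -2.21 ± 0.11 to -0.78 ± 0.17 (difference 1.43, exact permutation p = 0.0286, adjusted 0.0333). Per kb of exon *Sod1* was at 700 against 1284 for *Sod2* in wild type and at 694 against 473 in knockout hearts. These levels rest on joined exon lengths of 3970 bases for *Sod1* and 10008 for *Sod2*. *Sod3*, the secreted form, rose from 597 ± 48.2 to 1016 ± 143 (0.76 ± 0.11, adjusted p = 0.000121). Catalase, *Cat*, which breaks down peroxide in peroxisomes, rose from 5072 ± 299 to 7762 ± 1450 (0.60 ± 0.11, adjusted p = 0.00109), with 6783, 6480, 9650 and 8135 in knockout replicates 1 to 4 and a log2 change of 0.39 without replicates 3 and 4, still called. Of the 4 members of mitochondria alone, 3 were lower and 1 higher, with a median log2 change of -0.47. Of the 6 members assigned to the cytosol (*Txn1*, *Txnrd1*, *Prdx1*, *Prdx2*, *Prdx6* and *Sod1*) 4 were higher and 1 lower, with a median of 0.22. Over all genes tested 30.7% were higher and 28.4% lower. Among the genes given no place were *Nqo1*, *Srxn1*, *Gclc*, *Gclm*, *Gss* and the NADPH supply genes, all higher. The glutathione transferases, none of them higher, had no place either. The cytosolic median thus leaves out cytosolic genes such as *Me1*. Cardiomyocytes hold most of the mitochondria of a heart, and the cardiomyocyte markers, all 10 of them lower, had a median log2 change of -1.83; their part in the falls was not tested.

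**Figure D3:**
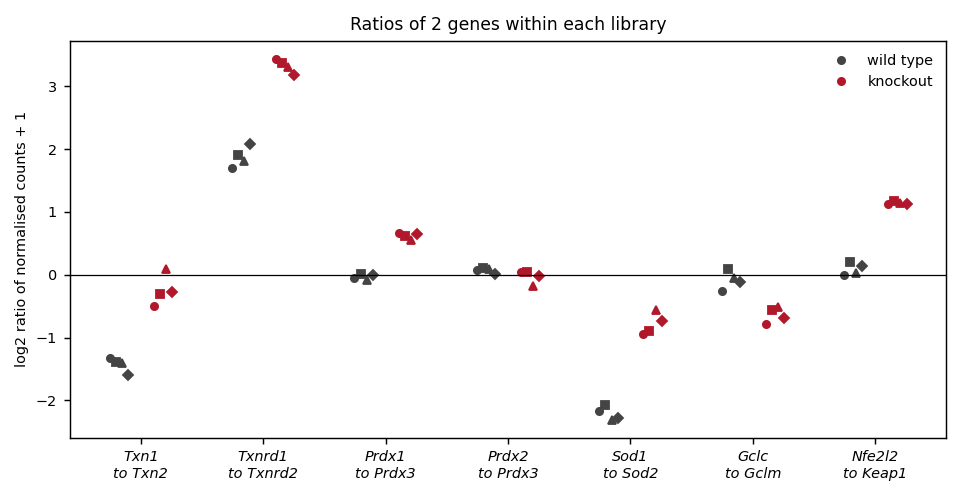
The log2 ratio of 2 genes within each library for the 7 pairs compared, wild type in grey and knockout in red, with 1 point per library and the line at equal counts. The groups are separate for every pair except *Prdx2* to *Prdx3*, where the values lie between -0.18 and 0.11.

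All 5 members listed under NADPH supply were higher in knockout hearts without overlap. *G6pdx*, *Pgd* and *Me1* form NADPH, whereas the reactions of *Taldo1* and *Tkt* do not form it themselves. *G6pdx*, glucose-6-phosphate dehydrogenase, the entry of the pentose phosphate pathway, had 183, 228, 233 and 235 normalised counts in wild type and 587, 629, 1187 and 882 in knockout libraries (log2 change 1.85 ± 0.20, adjusted p = 2.02e-05). *Pgd*, the second NADPH-forming enzyme of the pathway, had 295, 270, 235 and 242 in wild type and 714, 670, 826 and 772 in knockout libraries (1.52 ± 0.10, adjusted p = 4.42e-07). *Taldo1*, transaldolase of the non-oxidative branch, had 1112, 1139, 1143 and 1077 in wild type and 2939, 2753, 4511 and 3914 in knockout libraries (1.63 ± 0.14, adjusted p = 2.99e-06). Its partner in that branch, the transketolase *Tkt*, rose by 0.60 ± 0.07, and the cytosolic malic enzyme *Me1* rose by 0.54 ± 0.09. The knockout libraries of *Tkt* lay within 1107 to 1186, whereas those of *G6pdx* spread 2.02-fold between replicates 1 and 3. Without knockout replicates 3 and 4 the log2 changes of *G6pdx*, *Pgd*, *Taldo1*, *Tkt* and *Me1* were 1.47, 1.41, 1.35, 0.61 and 0.38, and all 5 stayed called.

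A further list held 13 enzymes linked to NADPH, not all of which form it. In knockout hearts 6 were higher (46.2%, against 30.7% of all genes tested) and 5 lower (38.5%, against 28.4%). By place, chosen after their values were seen, 4 of 7 cytosolic enzymes were higher and 1 lower, and of 6 mitochondrial enzymes 2 were higher and 4 lower. *Idh2*, the mitochondrial isocitrate dehydrogenase, had 38190, 34613, 41696 and 39465 normalised counts in wild type and 10960, 10726, 12695 and 13529 in knockout libraries (log2 change -1.69 ± 0.09). Its cytosolic counterpart *Idh1* had means of 1116 and 949 and was not called (adjusted p = 0.186). *Me3* and *Nadk2*, a mitochondrial malic enzyme and the mitochondrial NAD kinase, had log2 changes of -1.54 ± 0.05 and -0.83 ± 0.08. *Nnt*, the transhydrogenase of the inner membrane, had 604, 583, 629 and 616 in wild type and 256, 223, 240 and 205 in knockout libraries (-1.40 ± 0.09). C57BL/6 substrains differ in *Nnt* by a deletion of exons, and reads summed over all exons cannot show whether it is present. In the folate pathway the mitochondrial *Aldh1l2* rose from 439 ± 40.0 to 2350 ± 295 (2.42 ± 0.10) and the cytosolic *Aldh1l1* fell from 181 ± 23.1 to 53.1 ± 19.5 (-1.82 ± 0.26). *Me2*, another mitochondrial malic enzyme, rose by 0.66 ± 0.11.

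The 4 glutathione transferases, which couple glutathione to electrophiles, were not higher in knockout hearts: 1 was lower and 3 were not called. *Gstm1* had 2816 to 3172 normalised counts in wild type and 1991, 1912, 3411 and 2971 in knockout libraries (log2 change -0.26 ± 0.17, adjusted p = 0.207). *Gsta4* had 1054 to 1257 in wild type and 1068, 1026, 1737 and 1373 in knockout libraries (0.17 ± 0.15, adjusted p = 0.341). *Mgst1*, a transferase of membranes, had 564, 637, 553 and 651 in wild type and 343, 435, 1059 and 704 in knockout libraries (-0.05 ± 0.29, adjusted p = 0.886). In these 3 genes knockout replicates 1 and 2 were both below replicates 3 and 4, and all 4 wild type libraries of *Gstm1* and *Mgst1* lay above replicates 1 and 2. Without knockout replicates 3 and 4 the log2 changes were -0.61 for *Gstm1* and -0.63 for *Mgst1*, and both were then called lower, while *Gsta4* was at -0.11 and not called. Without knockout replicate 3 alone *Gstm1* was called lower, at -0.41. *Gstp1* fell, with 740, 641, 735 and 988 in wild type and 646, 532, 424 and 442 in knockout libraries (-0.60 ± 0.16, adjusted p = 0.007), and its groups overlapped at knockout replicate 1. Near-identical relatives exist for *Gstm1* and *Gstp1*, and reads may have been split between them, so their values are uncertain.

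Among 16 tested genes of the 18 further glutathione transferases, 4 were higher (25%, against 30.7% of all genes tested) and 8 lower (50%, against 28.4%). By the fitted change the largest rises were those of *Gsta2*, with 13.5, 4.93, 4.63 and 0 normalised counts in wild type and 118, 90.2, 143 and 85.7 in knockout libraries, and of its close relative *Gsta1* (log2 change 2.56 ± 0.46). *Gsta2* had 16 reads over the 4 wild type libraries and passed the filter only through the knockout group; its fitted log2 change was 4.84, 4.52 and 3.53 with 0.5, 1 and 5 added. The largest falls were those of *Gstk1*, the transferase of mitochondria and peroxisomes, from 1199 ± 105 to 149 ± 18.1 (-3.0 ± 0.10), and of *Gstm7*, from 711 ± 77.8 to 137 ± 20.4 (-2.37 ± 0.12). Of 16 tested genes among 17 further thiol and peroxide enzymes, 6 were higher and 6 lower (37.5% each, against 30.7% and 28.4%). *Sesn2*, a stress-induced sestrin, rose from 89.5 ± 7.75 to 1173 ± 254 (3.68 ± 0.14) and its relative *Sesn1* fell from 2336 ± 231 to 1229 ± 166 (-0.93 ± 0.10). *Gpx7*, a peroxidase of the endoplasmic reticulum, rose by 0.89 ± 0.18, and *Msrb2*, the mitochondrial methionine sulfoxide reductase, fell by 2.22 ± 0.13 on the log2 scale. Over the 96 tested genes of all further lists, the NADPH oxidases included, 43 were higher (44.8%) and 28 lower (29.2%), against 30.7% and 28.4% of all genes tested.

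Levels of different genes were compared per kilobase of exon. Because all annotated exons of a gene were joined, the ranks between genes depend on the annotation and are approximate. In wild type hearts *Prdx3* was the most abundant of the 35 transcripts, at 2953 normalised counts per kb, followed by *Gpx4* at 2364, *Prdx5* at 2061, *Gstm1* at 2026 and *Cat* at 1941. The least abundant were *Pgd* at 40.4, *Gss* at 40.9 and *Hmox1* at 47.9. In knockout hearts *Gpx4* was first at 3909, followed by *Cat* at 2971, *Gpx3* at 2399 and *Prdx3* at 2122. *Hmox1* went from rank 33 to rank 11, *Srxn1* from 24 to 8 and *Sod2* from 9 to 21. The genes that rose at least 2-fold, other than *Nqo1* and *Taldo1*, had under 200 normalised counts per kb in wild type hearts.

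**Figure D4:**
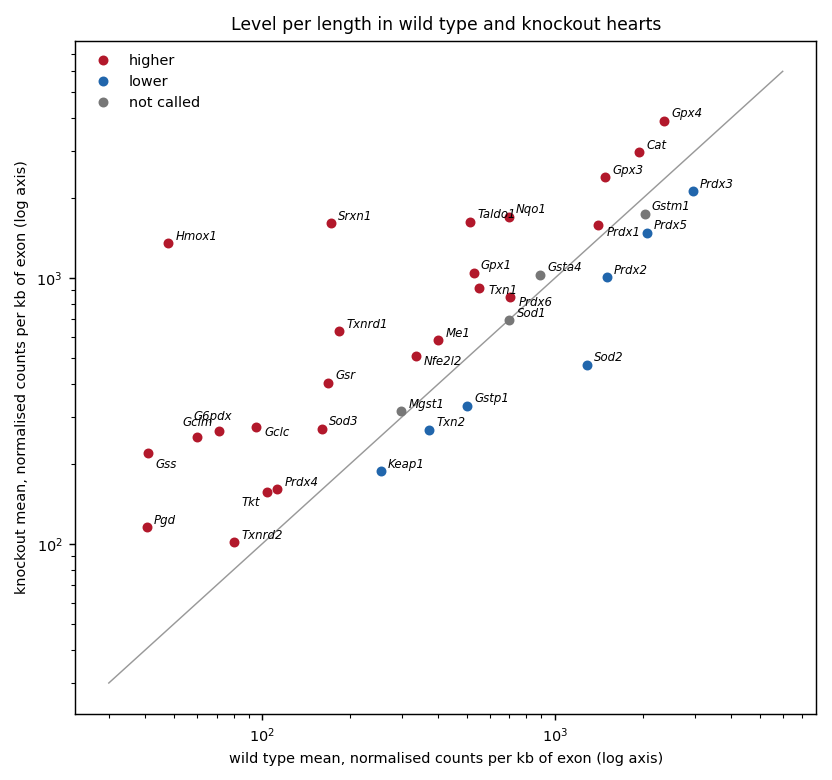
Mean normalised counts per kb of exon in wild type (x axis) and knockout hearts (y axis) for the 35 genes, both axes logarithmic, with the line of equal levels; red marks genes called higher, blue genes called lower and grey genes not called. *Hmox1* moved from 47.9 to 1352 and *Sod2* from 1284 to 473.

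The knockout libraries differed from each other more than the wild type libraries did. The coefficient of variation was larger in the knockout group for 30 of the 35 genes (85.7%, against 61.5% of all genes tested), with medians of 13.7% and 6.61%. Over all genes tested the medians were 13.7% in knockout and 9.97% in wild type hearts. Knockout replicate 3 was the highest knockout library for 26 of the 35 genes (74.3%), against 34.6% of all genes tested. Replicates 3 and 4 were both above replicates 1 and 2 for 21 of the 35 genes (60%), against 28.7% of all genes tested. The exceptions included *Txnrd1*, *Prdx4* and *Sod3*, in which replicate 3 was the lowest knockout library, and *Sod2*, in which replicate 4 was. Erythroid markers summed to 21982 in replicate 3 and 19478 in replicate 4, and granulocyte markers to 1261 and 1561. *Gclc* had 1537 and 1018 normalised counts in these libraries, *Gsr* 1600 and 1103, and *Nqo1* 3741 and 2742. The part of these cells in the spread was not tested. Without knockout replicates 3 and 4, 22 of the 35 genes were higher and 9 lower, and the log2 changes were 4.75 for *Hmox1*, 3.11 for *Srxn1* and 1.85 for *Txnrd1*.

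**Figure D5:**
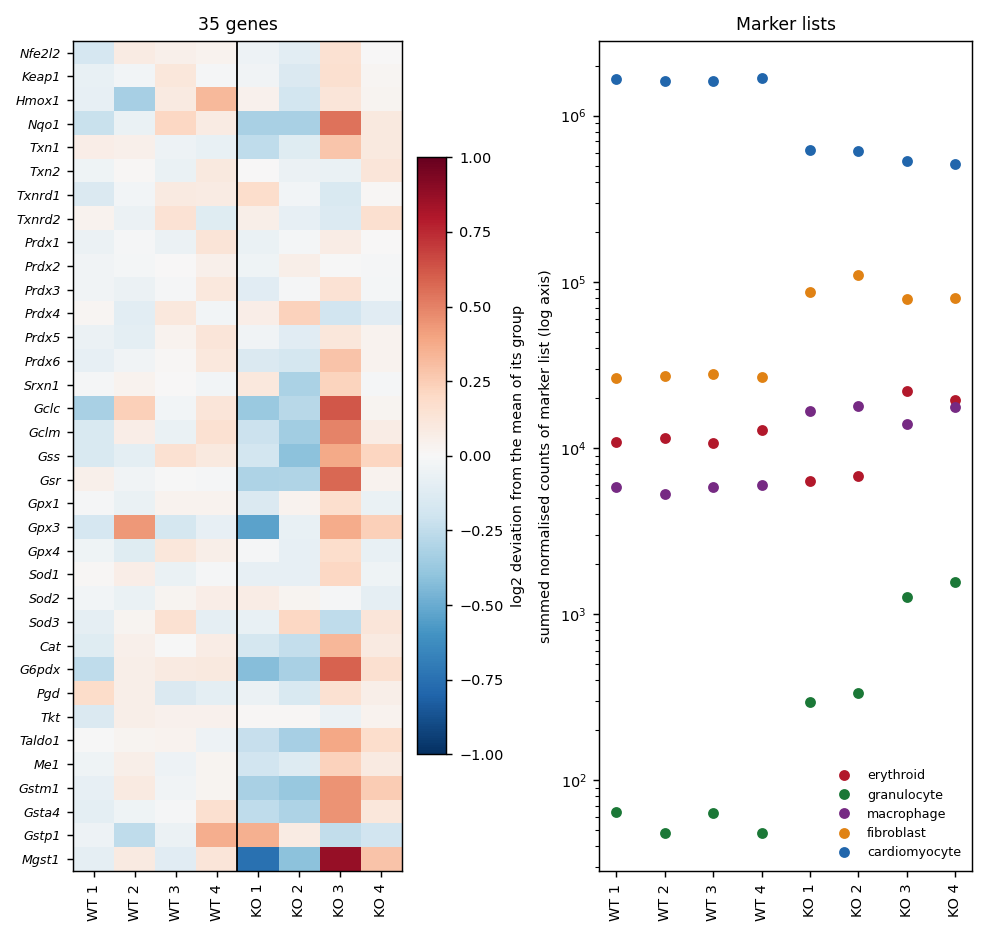
At the left, the deviation of each library from the mean of its own group on the log2 scale for the 35 genes (red above, blue below); at the right, summed normalised counts of 5 marker lists in each library on a log axis. Knockout replicate 3 is red in most rows, and the erythroid sums are 21982 and 19478 in knockout replicates 3 and 4 against 6320 and 6784 in replicates 1 and 2.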

How the data were processed

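Total RNA of 8 mouse hearts (4 wild type, 4 knockout) had been made into paired-end TruSeq libraries. Per the methods and processing notes, the authors aligned reads to mm10 with HISAT2 2.10, used featureCounts 1.6.3 for strand-specific counts of proper pairs over Ensembl GRCm38 genes, and divided counts by DESeq2 1.18.1 size factors (R 3.5.1). The deposited signal is this normalised count. It gave whole reads for 100% of values in every library (tolerance 0.01). The authors' own comparison (means, fold changes, p-values) was not used, and 13 repeated rows were not read.

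Genes with a mean of at least 10 normalised counts were tested with limma 3.58.1 (trend) on log2(normalised count + 1), two-sided, with Benjamini-Hochberg adjustment over 17046 genes and a threshold of 0.05. Fold changes on this scale understate changes of low genes. Pairs of genes were compared by exact two-sided permutation of the 8 libraries. Alternatives were other pseudocounts, filters and scalings, edgeR 4.0.16 and DESeq2 1.42.0 on the recovered reads (R 4.3.3), a replicate block and leaving out libraries. The 35 genes, 7 further lists and 9 marker lists were chosen with earlier results of these data known. All library values were given for *Nfe2l2*, *Keap1*, paired genes and genes with a log2 change of at least 1 in size; of each further list the 2 largest called rises and falls without overlap were named, with *Nnt*. Other names and values in the text were chosen after seeing the data. Promoter windows came from RefSeq (GRCm38.p6) and gene lengths from GENCODE M21, in which 34 of the 35 genes had the deposited position. Gene length was the union of all annotated exons of a gene.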

Additional observations from a re-analysis of the deposited data

Results flagged for a closer look

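In groups of 4 libraries, a library was singled out when its gap to the nearest other value exceeded Dixon's 95% critical value for the group's range. Of 84 groups examined 4 met this, about the 1 in 20 that chance gives. *Gpx3* had 3567 normalised counts in wild type replicate 2, with 2493 as the nearest value. *Sod1* had 3167 in knockout replicate 3, with 2667 as the nearest value. *G6pdx* had 183 in wild type replicate 1, with 228 as the nearest value, and *Tkt* had 690 in the same library, with 787 as the nearest value. The causes were not tested.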

How the results depend on the processing

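All 35 genes kept their direction and call with pseudocounts of 0.5 and 5, with a minimum mean of 50, with TMM factors and with the replicate block. Without a filter on low values *Prdx1* and *Prdx6* were no longer called. *Mgst1* was at 0.08 with edgeR and with DESeq2. Scaling to equal totals moves the median gene: its log2 change was 0.02 with the authors' size factors, 0.24 with equal totals of nuclear genes and 1.44 with equal totals of all genes, where the loss of mitochondrial RNA enters the totals. The split of all calls was 5241 higher and 4839 lower, 7355 and 3268, and 14952 and 567, respectively. With equal nuclear totals *Sod1* was at 0.21, *Mgst1* at 0.18, *Gstp1* at -0.37 and not called, and *Gsta4* at 0.40 and called. With equal totals of all genes 0 of the 35 genes were lower, 84 of the further genes were higher and 5 lower, and the sign turned for *Keap1* (1.0), *Txn2* (0.98), *Prdx2* (0.87), *Prdx3* (0.96), *Prdx5* (0.97), *Sod1* (1.43), *Sod2* (0.00), *Gstm1* (1.18), *Gstp1* (0.84) and *Mgst1* (1.39). Relative to the median gene *Keap1* was then at -0.43. Ratios within a library do not depend on scaling.

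Leaving out each library in turn gave 22 to 24 higher and 7 to 8 lower of the 35 genes, and 41 to 45 higher and 25 to 29 lower of the further genes. *Sod1* ranged from -0.08 (without knockout replicate 3) to 0.01 (without wild type replicate 2, knockout replicate 1 or knockout replicate 2), and *Mgst1* from -0.35 (without knockout replicate 3) to 0.20 and 0.08 (without knockout replicates 1 and 2 in turn). With 1 library left out the exact permutation p (35 assignments, not adjusted) stayed at 0.0286, the smallest possible, for every pair except *Prdx2* to *Prdx3*, which ranged from 0.0857 to 0.229. The differences ranged from 1.07 to 1.27 (*Txn1* to *Txn2*), 1.39 to 1.51 (*Txnrd1* to *Txnrd2*), 0.64 to 0.68 (*Prdx1* to *Prdx3*), -0.12 to -0.05 (*Prdx2* to *Prdx3*), 1.35 to 1.48 (*Sod1* to *Sod2*), -0.61 to -0.49 (*Gclc* to *Gclm*) and 1.02 to 1.08 (*Nfe2l2* to *Keap1*). Leaving out libraries in pairs was added after seeing the data: *Gsta4* was at -0.11 without knockout replicates 3 and 4, and without knockout replicates 1 and 2 *Sod1* was at 0.07, *Gstm1* at 0.09 and *Mgst1* at 0.52. The replicate block gave 24 higher and 7 lower. Same-numbered libraries did not deviate together (correlations 0.04, -0.07, 0.01 and -0.04). This gave no sign that the numbers pair the samples, but differences among the knockout libraries could hide a pairing. Low wild type counts limit *Slc7a11*, *Gsta2*, *Gsta1* and *Ncf4*, and the granulocyte markers *S100a8*, *S100a9*, *Retnlg* and *Cxcr2*.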

Other observations

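Of the NADPH oxidase genes, whose products make superoxide, 5 of 7 tested were higher in knockout hearts, against 30.7% of all genes tested. *Cyba* (log2 change 0.14) and *Duox1* (-1.0, adjusted p = 0.0568 and unadjusted p = 0.0343 by limma, with 10.4 to 28.3 normalised counts in wild type and 3.91 to 12.8 in knockout libraries) were not called. *Nox1* had too few counts to be tested, with 10.5 to 13.8 in wild type and 2.78 to 7.4 in knockout libraries, all below the wild type range. The largest called rises were those of *Ncf1* and *Ncf4*, subunits of the phagocyte oxidase. *Ncf1* had 66.1, 64.1, 61.8 and 51.8 normalised counts in wild type and 253, 256, 315 and 351 in knockout libraries (limma, log2 change 2.24 ± 0.14). *Ncf4* had 12.0, 28.3, 18.5 and 13.8 in wild type and 91.9, 84.8, 61.3 and 87.0 in knockout libraries (2.16 ± 0.27). *Cybb*, the catalytic subunit of the same oxidase, had a log2 change of 1.22. *Nox4*, an oxidase of heart muscle and vessels that is not particular to phagocytes, had 134, 98.6, 124 and 43.2 in wild type and 214, 269, 631 and 549 in knockout libraries, with the higher values in knockout replicates 3 and 4 and a log2 change of 2.02 ± 0.41. Macrophage markers summed to 14005 to 17807 in knockout and 5306 to 5962 in wild type libraries, and their part in these rises was not tested.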
